A study of Mus musculus with 11 samples.

Results

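Upstream antisense RNAs (uaRNAs) start at a promoter and run away from its gene on the opposite strand, and the 546 described here have host genes that span more than 100 kb. They were taken from 5867 uaRNA regions in the deposited uaRNA table by 3 conditions: a mean of at least 10 depth-normalized reads over the 5 libraries, a host whose start and stop in the deposited exon table lie more than 100 kb apart, and no counted gene on the opposite strand starting within 5 kb upstream of the host. In all, 692 regions had such a long host. Of these, 136 fell below a mean of 10 reads and were not tested, and 10 of the other 556 had an opposite-strand start, which left 546 of the 5124 uaRNAs tested. All 546 hosts were protein-coding, on 20 chromosomes, with a median span of 147.6 kb (quartiles 118.0 and 210.0, range 100.1 to 855.3 kb). The minimum counts both groups, so it also admitted uaRNAs through the group in which they were high: 52 of the 546 had a siNT mean below 10 reads and 2 had a siZC3H4 mean below 10.

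The study asked how sequence affects attenuation of transcription by the Restrictor complex, whose subunits are the zinc finger protein ZC3H4 and WDR82. Its siRNA arm used wild-type F121-9 mouse embryonic stem cells, a female line from a cross of the CAST and 129 strains, kept on gelatin in serum-free medium with LIF and inhibitors of MEK and GSK3. Cells were transfected with 30 nM siRNA, either a control without a target (siNT, 3 libraries, replicates 1, 2 and 3) or one against Zc3h4 (siZC3H4, 2 libraries, replicates 2 and 3), and were harvested 47 hours later after 20 minutes in 500 µM 4-thiouridine (4sU). In this assay, TT-seq, the RNA is fragmented and the 4sU-labelled pieces are pulled down and sequenced, so reads report RNA made during the pulse. Libraries of the DMSO and dTAG arm were not analysed here. Whether the replicates are separate cultures is not told by the labels, so p-values measure the spread between these libraries, which may be technical.

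The targeted gene went against the label. Zc3h4 had 3465, 3610 and 3363 depth-normalized exon reads under siNT and 7285 and 6718 in the libraries labelled siZC3H4, a 2.01-fold rise (limma, adjusted p = 0.00431). Wdr82 was at 8967, 8088 and 9450 against 8778 and 9974 and did not pass (adjusted p = 0.835). These reads come from newly made RNA and give no level of mature Zc3h4 mRNA or of its protein, so every direction below is that of the libraries labelled siZC3H4. Exon totals ran from 14840637 to 26548710 reads a library and uaRNA totals from 996927 to 2648683, and in both tables the siZC3H4 replicate 2 library was the deepest. All 9 stem cell markers were present, with summed exon reads of 81530 to 110068 a library. Of other lineages, 3 of 8 fibroblast markers had rows (29217 to 34705 reads, mostly Fn1), as did 4 of 7 endoderm (109 to 186), 5 of 6 neural (1352 to 2007), 3 of 5 mesoderm (349 to 594) and 2 of 6 trophoblast markers (1876 to 2415), and no marker passed the test.

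Most mammalian promoters fire in both directions. The sense polymerase goes on into the gene, while the antisense one usually stops early and leaves a short RNA that nuclear decay removes. Restrictor is known to end such unproductive transcription.

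Promoter sequences are shown for uaRNAs picked by rank from the changes and calls given below. The letters can be set beside the read counts that follow, as a description without a test. Each is the RefSeq window on GRCm38.p6 from 250 bases before to 50 bases after the annotated start, 5′ to 3′ on the host strand, so that the uaRNA is made from the other strand toward the left. Capitals mark GGGCGG, the core of a GC box, or its reverse complement CCGCCC, and CCAAT. The first 3 are the strongest rises that have a window whose annotated start lies within 100 bases of the host start. They were Tulp4 (chr17:6106580-6106879, plus strand), Epb41l1 (chr2:156420841-156421140, plus strand) and Rnf144a (chr12:26415213-26415512, minus strand). The uaRNAs of Tulp4 and Rnf144a reached the minimum through the labelled siZC3H4 libraries, so their rank is partly set by the rule.
Tulp4: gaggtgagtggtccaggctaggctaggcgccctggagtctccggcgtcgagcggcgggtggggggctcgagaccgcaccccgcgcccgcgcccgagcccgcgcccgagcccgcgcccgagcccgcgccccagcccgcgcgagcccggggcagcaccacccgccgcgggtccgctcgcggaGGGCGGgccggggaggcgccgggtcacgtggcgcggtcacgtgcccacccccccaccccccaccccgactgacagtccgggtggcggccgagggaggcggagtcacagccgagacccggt
Epb41l1: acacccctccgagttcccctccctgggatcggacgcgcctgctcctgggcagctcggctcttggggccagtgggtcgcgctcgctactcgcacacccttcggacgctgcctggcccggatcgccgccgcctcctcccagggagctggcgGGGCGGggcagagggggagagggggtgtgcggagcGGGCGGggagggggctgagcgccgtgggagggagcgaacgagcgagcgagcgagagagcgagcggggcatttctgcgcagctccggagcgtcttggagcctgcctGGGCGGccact
Rnf144a: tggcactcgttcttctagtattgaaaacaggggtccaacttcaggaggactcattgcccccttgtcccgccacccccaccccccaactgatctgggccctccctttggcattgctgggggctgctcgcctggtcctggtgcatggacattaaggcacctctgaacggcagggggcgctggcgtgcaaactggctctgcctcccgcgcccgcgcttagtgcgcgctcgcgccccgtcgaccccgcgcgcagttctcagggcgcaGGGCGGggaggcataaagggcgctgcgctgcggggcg

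The 3 most abundant uaRNAs that did not pass the test were those of Lrrc8d (chr5:105700560-105700859, plus strand), Ino80 (chr2:119477638-119477937, minus strand) and Tbc1d22a (chr15:86214209-86214508, plus strand), whose windows are printed beside them.
Lrrc8d: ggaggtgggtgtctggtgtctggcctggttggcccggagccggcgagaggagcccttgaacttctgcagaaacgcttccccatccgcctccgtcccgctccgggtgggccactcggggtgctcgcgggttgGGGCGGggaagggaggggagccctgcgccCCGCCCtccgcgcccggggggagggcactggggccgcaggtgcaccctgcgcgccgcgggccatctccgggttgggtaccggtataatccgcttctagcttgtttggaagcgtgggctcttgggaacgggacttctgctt
Ino80: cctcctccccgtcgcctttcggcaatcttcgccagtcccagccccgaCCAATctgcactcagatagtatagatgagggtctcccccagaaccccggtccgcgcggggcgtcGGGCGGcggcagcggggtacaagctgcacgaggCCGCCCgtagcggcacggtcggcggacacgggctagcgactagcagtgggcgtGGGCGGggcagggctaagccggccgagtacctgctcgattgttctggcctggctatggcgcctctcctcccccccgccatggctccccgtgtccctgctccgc
Tbc1d22a: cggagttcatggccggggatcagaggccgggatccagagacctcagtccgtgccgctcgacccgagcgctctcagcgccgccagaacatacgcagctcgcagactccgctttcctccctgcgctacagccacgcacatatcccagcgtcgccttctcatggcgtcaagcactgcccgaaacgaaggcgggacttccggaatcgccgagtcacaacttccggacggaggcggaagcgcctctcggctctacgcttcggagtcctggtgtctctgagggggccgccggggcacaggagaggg
The first 5 windows hold 1 to 4 of these motifs and that of Tbc1d22a holds none. GC content was 81.0% at Tulp4, 74.0% at Epb41l1 and 67.0% at Rnf144a, against 70.3% at Lrrc8d, 70.0% at Ino80 and 66.0% at Tbc1d22a, so both sets overlap. AATAAA, the core polyadenylation signal, GTAAGT, a strong splice donor, and TATAAA were also searched on both strands and occur in none of the 6.

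Antisense RNA upstream of very long genes was higher in the libraries labelled siZC3H4, while the median exon change of the same genes was close to 0. Of the 546 uaRNAs, 335 rose (61.4%), 1 fell and 210 did not pass. Among all 5124 uaRNAs tested, 62.1% rose and 1.13% fell, so the share that rose lies near the background. These directions hold on the deposited depth scale: scaled on the uaRNA table itself by median of ratios, which removes the shift common to all uaRNAs, 29 rose and 43 fell, beside 10.5% and 11.5% of all tested. The median log2 change was 0.87 (quartiles 0.51 and 1.28), or 1.83-fold, beside 0.88 (0.46 and 1.31) over all uaRNAs tested. A rise of at least 2-fold was called for 221 of the 546, beside 42.6% of all tested, and of at least 4-fold for 18, beside 4.47% of all tested. Among the 494 with a siNT mean of 10 or more these counts were 181 and 9. Over all 4818 tested uaRNAs held to the same minimum they were 1960 and 167. The count of 4-fold rises thus rests in large part on uaRNAs admitted through the labelled siZC3H4 libraries. Calls are from limma on log2(depth-normalized reads + 1) at an adjusted p under 0.05, with fold changes on that scale, which understates changes at low reads.

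By library, the median uaRNA of a long host lay 0.24, 0.49 and 0.27 log2 units below its own 5-library mean in siNT replicates 1, 2 and 3, and 0.60 and 0.48 above it in siZC3H4 replicates 2 and 3. Both labelled siZC3H4 libraries were thus above every siNT library at the median, as they were over all uaRNAs. For 415 uaRNAs (76.0%) both siZC3H4 values exceeded every siNT value, beside 73.7% of all tested, and for 10 both lay below, beside 2.11%. The 546 took 5.67%, 5.32% and 5.62% of all uaRNA reads under siNT and 6.16% and 6.21% in those labelled siZC3H4. The number that rose was smaller with 1 labelled library, where the lone library is assumed to vary like the siNT libraries: it was 170 without siZC3H4 replicate 2, beside 35.9% of all uaRNAs tested, and 248 without replicate 3, beside 52.6%. The median log2 change was then 0.82 and 0.97. In these bulk samples, a change in the number of cells that make a uaRNA cannot be told apart from a change in RNA per cell.

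**Figure D1:**
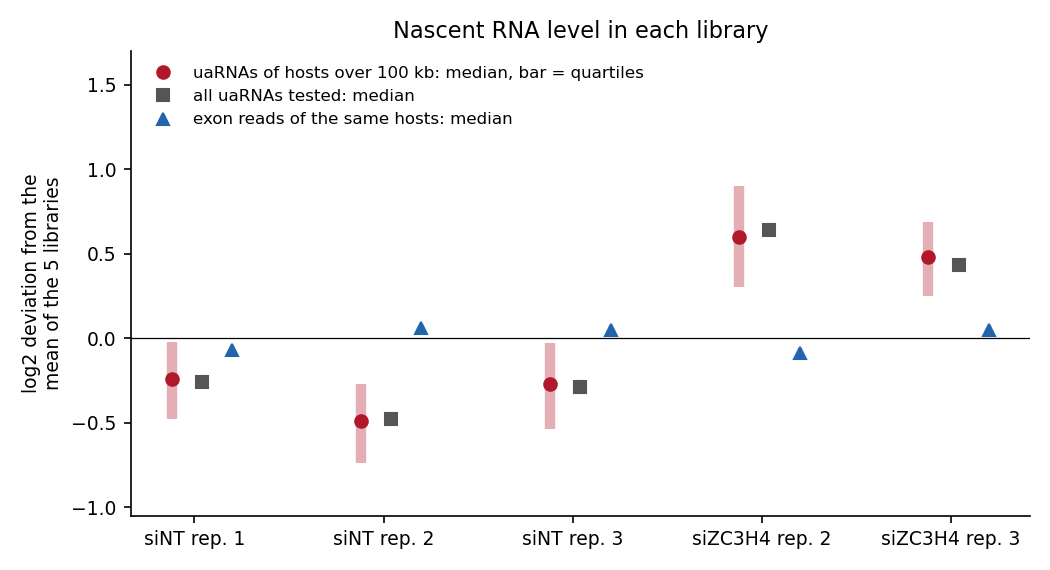
Deviation of each library from the mean of the 5 libraries (vertical axis, log2 units): median and quartiles of the 546 uaRNAs of long hosts (circles and bars), median of all 5124 uaRNAs tested (squares) and median of the exon reads of the same hosts (triangles). The uaRNA medians of the 2 libraries labelled siZC3H4, 0.60 and 0.48, lie above all 3 siNT medians, while host exon medians stay between -0.09 and 0.06, all on the deposited scale.

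Without the 52 uaRNAs under 10 reads in siNT, 40 of which rose, 295 of 494 rose (59.7%) with a median of 0.82, beside 61.4% and 0.85 for all tested uaRNAs held to the same minimum. The median siNT level was 39.0 depth-normalized reads a region against 55.3 over all tested, although region lengths are not given and levels per length cannot be set side by side. When all tested uaRNAs were cut into 4 equal classes of siNT level, the class up to 22.7 reads had a median change of 1.16 at long hosts, and the class above 141 reads 0.63 (1.10 and 0.70 over all tested). The siNT level that sets these classes also enters the change, and the lowest class holds the 52 uaRNAs admitted through the labelled siZC3H4 libraries, so these medians describe the classes and support no relation with level.

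Within the set, the medians of 3 classes of host span lay close together. Hosts of 100 to 200 kb had 247 of 394 uaRNAs risen (62.7%) and a median of 0.90, hosts of 200 to 400 kb 68 of 116 (58.6%) and 0.81, and hosts above 400 kb 20 of 36 (55.6%) and 0.97. Under the same rule on opposite-strand starts, hosts of up to 10 kb had 745 of 1218 risen (61.2%) and 0.91, and those of 10 to 100 kb 2001 of 3123 (64.1%) and 0.90. Across the 546, log2 change and log2 span had a Pearson r of -0.02 and a Spearman correlation of -0.01. On the X chromosome, 11 of 20 rose (55.0%) with a median of 0.76, beside 85 of 149 (57.0%) and 0.93 for all tested uaRNAs on X. On autosomes, 324 of 526 rose with 0.88. Another RefSeq gene, of either strand, lay in the 1 kb upstream of 98 hosts, where 62 rose with a median of 0.87, as did 273 of the 448 without one with 0.88.

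**Figure D2:**
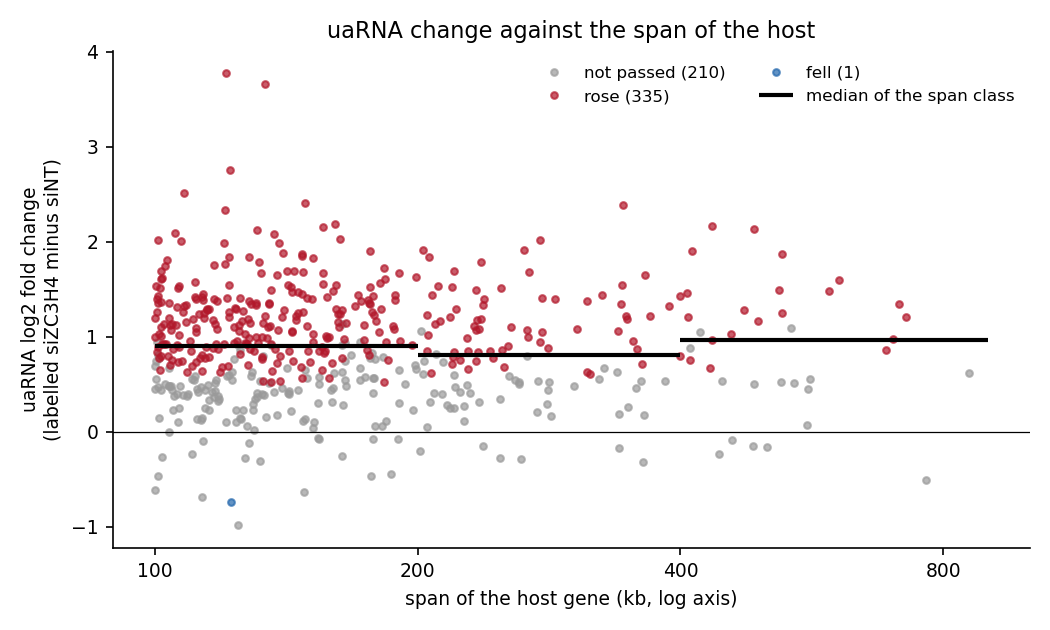
uaRNA log2 fold change, labelled siZC3H4 minus siNT (vertical axis), against host span in kb (horizontal log axis), 1 point per uaRNA coloured by its limma call, with black lines at the medians of the 3 span classes. The medians, 0.90, 0.81 and 0.97, on the deposited scale, form no slope.

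At the edges of the rule, Epc2, with a span of 100074 bases just inside, had a log2 change of 0.995 and rose, and Prep, with 99996 just outside, had 0.288 and did not pass. 4932438A13Rik entered with a mean of 10.01 reads, and Cfap43, at 9.909, was not tested. Ubr1, with an opposite start 6633 bases upstream, that of Tmem62, was kept, while Pex14, whose neighbour Dffa starts 4365 bases upstream, was not. Neither of their uaRNAs passed.

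The 2 largest rises were of uaRNAs with very few reads under siNT. That of Ccdc60, which encodes a coiled-coil protein (chr5:116169225-116289978, minus strand), had 5, 0.87 and 1.71 depth-normalized reads in siNT and 56.6 and 30.6 in the libraries labelled siZC3H4. That of Tulp4, a tubby family gene (chr17:6106887-6240637, plus strand), had 3, 1.74 and 3.41 against 50.9 and 40.2. For both, each siZC3H4 value was at least several times the highest siNT value, but the control rests on 8 and 9 reads in all. From the reads alone the rate ratio was 19.5 at Ccdc60 (95% exact interval 9.61 to 46.1) and 17.3 at Tulp4 (8.85 to 38.7), intervals that cover counting error only. The fitted log2 changes were 3.77 ± 0.56 and 3.67 ± 0.52 (SE). Both uaRNAs are among the 52 under 10 reads in siNT that reached the minimum through the group in which they were high, so their place among the largest rises is partly set by the rule and no p-value is given. For Ccdc60 the nearest RefSeq start lies 993 bases from the host start, so its promoter is not printed, and its host exon reads were also higher, at 14, 13.9 and 11.95 against 40.8 and 30.6 (log2 1.35, adjusted p = 0.0803, not passed).

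Epb41l1, whose product ties membrane proteins to the actin skeleton, combined a large rise with firm counts. Its uaRNA had 78, 26.1 and 47.8 reads in siNT and 334 and 303 in the labelled siZC3H4 libraries, 6.78-fold higher (log2 2.76 ± 0.30; limma adjusted p = 2.81e-11). The groups lie far apart, though groups without overlap were a condition for this choice of genes. The host exon reads of Epb41l1 were 1361, 1249 and 1363 against 1455 and 1611, a log2 change of 0.21 that did not pass. At Rnf144a, a ubiquitin ligase gene, the uaRNA went from 9, 6.09 and 9.39 reads to 65.7 and 39.2 (log2 2.52 ± 0.43); it too is among the 52. Its host exon reads overlapped between groups, at 500, 318 and 438 against 269 and 405.

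The uaRNA of Tcf4, an E protein of the basic helix-loop-helix class with a host of 343.9 kb, had 40, 26.1 and 33.3 reads in siNT and 192 and 159 in the labelled siZC3H4 libraries (log2 2.39 ± 0.30; limma adjusted p = 2.39e-09). Exon reads of Tcf4 were almost level, 793 ± 69.1 (SD, n = 3) against 787 ± 50.3 (SD, n = 2). The uaRNA of Mrtfb, an actin-regulated partner of serum response factor, had 77, 62.6 and 71.7 reads against 384 and 271 (log2 2.18 ± 0.27), while its exon reads were lower in both labelled libraries, 1249 and 1359 against 1426 to 1679, without passing (adjusted p = 0.391). In both genes the antisense groups are separate by a wide margin, though groups without overlap were a condition for the choice.

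The other 4 of the 10 largest rises had few control reads, and all 4 are among the 52 admitted through the labelled siZC3H4 libraries. The uaRNA of the phosphatase gene Ptpn14 had 7, 6.09 and 11.95 reads against 67.9 and 32.5, and that of Sfxn5, a mitochondrial carrier, 9, 4.35 and 9.39 against 49.2 and 33.5. The uaRNA of Agap1, which encodes an Arf GTPase-activating protein, had 6, 12.2 and 5.97 against 59.4 and 23.9, and that of the sorting receptor gene Sorl1 4, 1.74 and 6.83 against 16.4 and 24.9. Their log2 changes lay between 2.16 and 2.41. The place of these 4 among the largest rises is partly set by the rule, so no p-value is given. For Agap1 and Sorl1 the call turned on 1 library: Agap1 was at log2 1.53 without siZC3H4 replicate 2 and Sorl1 at 1.87 without siZC3H4 replicate 3.

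Rnf17, a germ cell gene with RING and tudor domains, had the only uaRNA of a long host that fell. Its reads were 253, 246 and 206 in siNT and 160 and 123 in the labelled siZC3H4 libraries, so the groups do not overlap (log2 -0.73 ± 0.25; limma adjusted p = 0.00912). Exon reads of Rnf17 were 625 ± 143 (SD, n = 3) against 525 ± 105 (SD, n = 2) and did not pass. The call was lost without siNT replicate 1 (log2 -0.68, adjusted p = 0.0555) and without siZC3H4 replicate 3 (-0.55, 0.107).

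The most abundant uaRNAs of long hosts changed little in fold. That of Schip1, a partner of the merlin tumour suppressor, had 4561, 3470 and 5240 reads in siNT and 5799 and 6844 in the labelled siZC3H4 libraries, 1.44-fold (log2 0.53 ± 0.19; limma adjusted p = 0.0137). The nearest RefSeq start lies 25114 bases from the Schip1 start of the table, so the promoter of this RNA is uncertain. Ankrd11, a chromatin-associated ankyrin repeat gene, had 1394, 1139 and 1502 uaRNA reads against 2067 and 1900, and Zfp704, a zinc finger gene, 1151, 1273 and 944 against 1697 and 1521. Tbl1xr1, a subunit of the NCoR corepressor complexes, had 927, 829 and 722 against 1535 and 1203 (log2 0.73 ± 0.21). All 4 rose with non-overlapping groups, but each call was lost when at least 1 single library was left out, with adjusted p up to 0.147 for Schip1, 0.0980 for Ankrd11, 0.145 for Zfp704 and 0.0795 for Tbl1xr1. The libraries were siNT replicate 2 and siZC3H4 replicate 3 for Schip1 (log2 0.37 and 0.41), siNT replicate 2 and siZC3H4 replicate 2 for Ankrd11 (0.45 and 0.51), siNT replicates 1 and 3 and siZC3H4 replicate 2 for Zfp704 (0.55, 0.41 and 0.45), and siZC3H4 replicate 2 for Tbl1xr1 (0.55).

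Among well-measured uaRNAs that did not pass, Lrrc8d stood highest. This gene, for a subunit of volume-regulated anion channels, had 1291, 867 and 978 uaRNA reads in siNT and 1252 and 1194 in the labelled siZC3H4 libraries, with overlapping groups and a log2 change of 0.25 (95% interval -0.16 to 0.66). Ino80, the catalytic subunit of a chromatin remodeller, had 588, 555 and 780 against 788 and 942 (0.44, interval 0.02 to 0.87; limma adjusted p = 0.0639). Tbc1d22a, a Rab GAP domain gene, had 672, 551 and 691 against 715 and 712 (0.17, interval -0.25 to 0.59). Each of these intervals ends below 1, so they leave out a doubling on this scale.

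Tlk2, a kinase of chromatin assembly, had 629, 484 and 631 uaRNA reads against 791 and 791 (0.45, adjusted p = 0.0569), and Clasp1, a microtubule plus-end protein gene, 601, 452 and 805 against 624 and 823 (0.25, adjusted p = 0.317). For Tlk2, as for Ino80 and Tbc1d22a, both labelled libraries lay above every siNT library, and for Clasp1 the groups overlapped. Of the 546, 210 did not pass, beside 1886 of all 5124 tested. Over these 210, 181 had a fitted change above 0, 90 had a 95% interval wholly below a doubling, and 120 had an interval that still held one. These 3 counts were not taken over all uaRNAs and describe the 210 only.

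**Figure D3:**
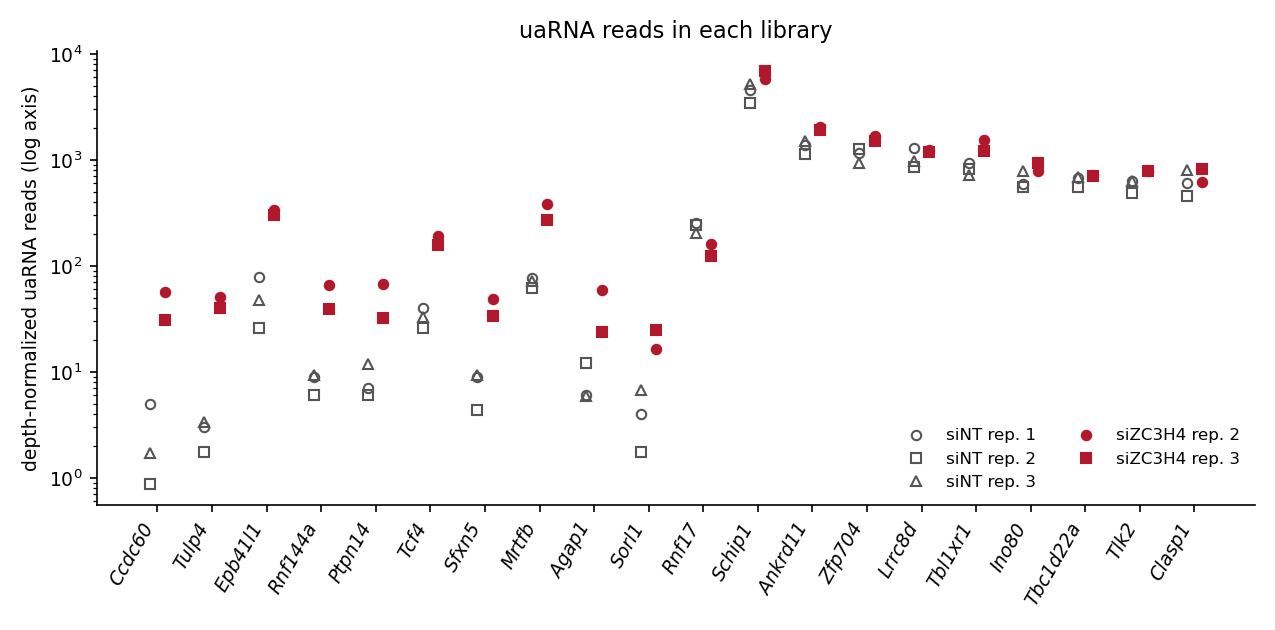
Depth-normalized uaRNA reads (vertical log axis) in each library for the 10 strongest rises, Rnf17, and the most abundant uaRNAs that passed or did not pass, with siNT as open symbols and the libraries labelled siZC3H4 as filled ones. On the deposited scale, groups are widely separate from Ccdc60 to Sorl1, turn over at Rnf17, and lie close or overlap from Schip1 to Clasp1. The 10 rises were picked among uaRNAs whose groups do not overlap, so that they are separate is set by the choice. Most of the 10 reached the minimum through the labelled siZC3H4 libraries.

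The hosts were sorted by role with name patterns, which placed 315 of the 546. The share with a risen uaRNA ranged from 44.4% to 71.0% over the 8 lists, beside 62.1% of all uaRNAs tested. Directions are those of the deposited scale, and lists were compared by counts and medians only, with no test between them.

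Transcription factor genes had 22 of 31 uaRNAs risen, none fallen, and a median log2 change of 0.90. The most abundant were those of Zfp704 and Tbl1xr1, given above, and of the zinc finger gene Zfp532, with 501, 508 and 484 reads in siNT against 1130 and 759 (log2 0.90 ± 0.22; limma adjusted p = 3.54e-04). Tbl1xr1, a corepressor subunit, stands in this list by its name pattern only. The siNT libraries of Zfp532 were close together and the labelled ones apart, and without siZC3H4 replicate 2 the change was 0.61 (adjusted p = 0.0569).

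Chromatin regulators had the lowest share, 16 of 36 risen, with a median of 0.55 (quartiles 0.41 and 0.95). Jarid2, a cofactor of Polycomb repressive complex 2, was their most abundant uaRNA and rose clearly, from 444, 358 and 509 reads to 1324 and 1440, 3.19-fold (log2 1.67 ± 0.21; limma adjusted p = 2.39e-09). Exon reads of Jarid2 overlapped between groups, 6183 ± 584 (SD, n = 3) against 5709 ± 821 (SD, n = 2). Ino80, above, and the remodeller gene Chd9, with 428, 333 and 530 uaRNA reads against 458 and 570, did not pass. The siNT level of this list was higher than that of the whole set, with a median of 65.1 reads against 39.0, and the part of level in its lower median was not tested.

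RNA-binding and processing factors had 13 of 24 risen and a median of 0.83, yet none of their 3 most abundant uaRNAs passed. The uaRNA of Nup210, a nuclear pore protein gene, had 595, 447 and 413 reads against 746 and 599 (limma adjusted p = 0.0506), that of the mRNA-binding protein gene Igf2bp2 448, 463 and 288 against 650 and 463 (0.0585), and that of the nonsense-mediated decay gene Upf2 347, 299 and 405 against 500 and 410 (0.135). All 3 had values between 0.38 and 0.49 on the log2 scale, and for Igf2bp2 the groups overlapped. Nup210 stands in this list by its name pattern only.

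Kinases, phosphatases and signalling receptors had 31 of 57 risen with a median of 0.80. The uaRNA of Gsk3b, a kinase that restrains Wnt signalling, rose from 425, 343 and 417 reads to 779 and 650 (log2 0.85 ± 0.22; limma adjusted p = 7.33e-04). That of Dyrk1a, another kinase gene, had 563, 372 and 346 against 424 and 504, with overlapping groups, and did not pass (log2 0.15, adjusted p = 0.567). Tlk2 is described above.

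Small GTPase regulators had the highest median, 1.06 (quartiles 0.72 and 1.44), with 24 of 36 risen. Tbc1d1, a Rab GTPase-activating protein of glucose transport, rose from 301, 306 and 263 uaRNA reads to 901 and 656 (log2 1.41 ± 0.22; limma adjusted p = 4.30e-07). Arhgap35, another GTPase-activating protein gene, rose from 246, 224 and 245 to 405 and 339 (log2 0.64 ± 0.23), a call lost without siZC3H4 replicate 2 (0.51, adjusted p = 0.140). Tbc1d22a of the same list did not pass.

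Cytoskeleton and adhesion genes had 35 of 58 risen and a median of 0.81. Cobl, an actin nucleator gene, rose from 445, 376 and 460 uaRNA reads to 642 and 710 (log2 0.67 ± 0.22; limma adjusted p = 0.00686), which was lost by a small margin without siZC3H4 replicate 3 (0.59, adjusted p = 0.0532). Map4, for a microtubule-associated protein, had 421, 330 and 532 against 410 and 495, with overlapping groups and a log2 change of 0.10 (95% interval -0.35 to 0.56). Clasp1 did not pass either.

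Ubiquitin pathway genes had 21 of 37 risen, 1 fallen (Rnf17) and a median of 0.80. Birc6, a giant ubiquitin enzyme that blocks apoptosis, rose from 650, 610 and 904 uaRNA reads to 1337 and 1447 (log2 0.97 ± 0.21; limma adjusted p = 8.40e-05). Atxn2 rose from 753, 560 and 753 to 1395 and 1210 (log2 0.93 ± 0.21), but its product is known as an RNA-binding protein and it stands in this list by its name only. Both had separate groups.

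Membrane traffic and autophagy genes had 23 of 36 risen and a median of 0.96. Tmem131, linked to collagen export, rose from 166, 157 and 146 uaRNA reads to 476 and 387 (log2 1.46 ± 0.24; limma adjusted p = 8.66e-07). Osbpl1a, an oxysterol-binding family gene, was lower in both labelled libraries, 182, 201 and 225 against 125 and 176, and did not pass (log2 -0.45, adjusted p = 0.115). Vps53, a subunit of the endosomal GARP tether, had 135, 109 and 127 against 152 and 172 (0.39, adjusted p = 0.183).

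**Figure D4:**
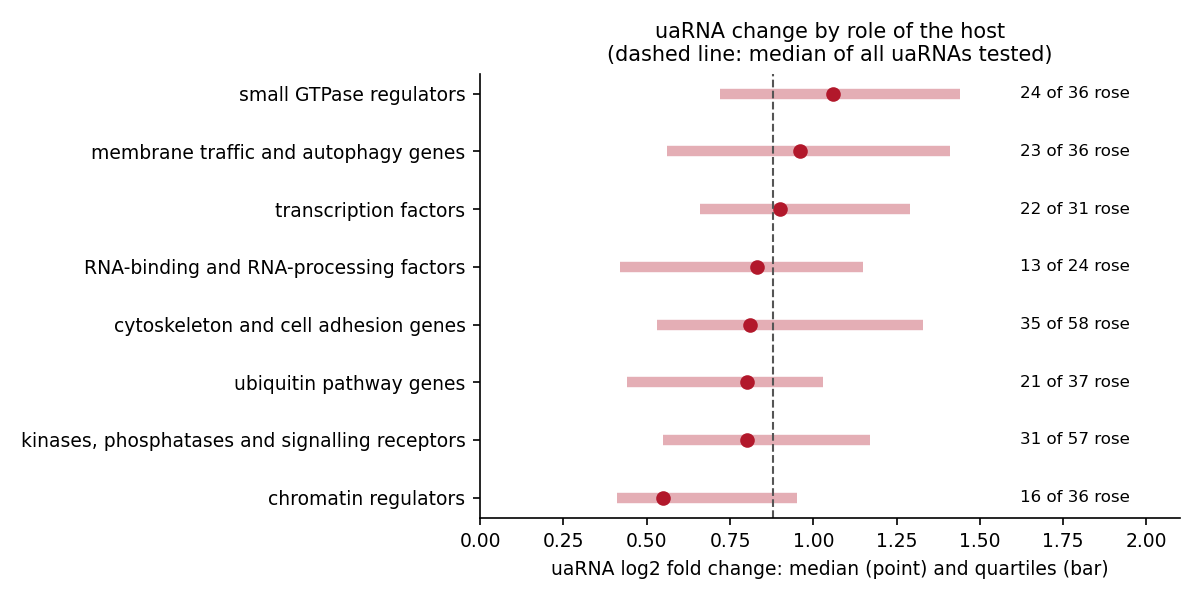
Median (points) and quartiles (bars) of the uaRNA log2 fold change, labelled siZC3H4 minus siNT, for the 8 role lists of long hosts, with the number risen at the right and the median of all uaRNAs tested, 0.88, as a dashed line. On the deposited scale, the quartile ranges of all 8 overlap, from chromatin regulators at 0.55 to small GTPase regulators at 1.06.

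The uaRNAs of the 5 longest hosts had modest levels, and 3 of the 5 rose. Ctnnd2, the delta-catenin gene of 855.3 kb, had 16, 23.5 and 23.0 reads in siNT and 38.5 and 26.8 in the labelled siZC3H4 libraries and did not pass (log2 0.62, 95% interval -0.15 to 1.39). Grid1, a glutamate receptor subunit gene of 763.5 kb, had 31, 34.8 and 23.9 against 24.3 and 17.2, with overlapping groups (log2 -0.51, 95% interval -1.27 to 0.25). Of these, only the groups of Ctnnd2 were separate.

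Exoc4, an exocyst subunit gene of 724.9 kb, rose from 75, 73.9 and 81.9 uaRNA reads to 181 and 178 (log2 1.21 ± 0.27; limma adjusted p = 1.33e-04). Diaph2, a formin gene of 711.4 kb on the X chromosome, rose from 61, 36.5 and 70.8 to 134 and 143 (log2 1.34 ± 0.30). Tenm4, a teneurin gene of 700.9 kb, rose from 57, 61.7 and 41.8 to 124 and 88.9 (log2 0.98 ± 0.30), a call lost without siZC3H4 replicate 2 (0.74, adjusted p = 0.123). In all 3, exon reads of the host overlapped between groups.

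Exon reads of few long hosts passed the test. That test had fewer total degrees of freedom than that of the uaRNAs (median 9.219 against 67.45), so their numbers of calls are not on an equal footing. Of 542 hosts tested, 4 rose (0.7%) and none fell, beside 2.22% risen and 0.144% fallen among all genes tested. Over the hosts of all uaRNAs tested, 1.1% rose and 0.1% fell. Hosts of 30 to 100 kb under the same rule on opposite-strand starts had 0.5% risen and 0.07% fallen, so few rises are not particular to the long hosts. At an unadjusted p under 0.05 in limma there were 33 higher and 33 lower, beside 11.0% and 4.39% of all genes. edgeR called 6 higher, beside 2.76% of all genes, and DESeq2 called 10, beside 4.3%. Neither called any of these hosts lower, beside 0.152% and 0.777%. The median log2 change was -0.05 (quartiles -0.17 and 0.09), beside 0.01 over all genes. In 62 hosts (11.4%) both labelled siZC3H4 values exceeded every siNT value, beside 19.5% of all genes. Both lay below in 100 of the 542, beside 1599 of 12482 genes (12.8%). Over the hosts of all uaRNAs tested, both lay above in 14.6% and below in 665 of 5106. For hosts of 30 to 100 kb these were 10.7% and 208 of 1495. The share with both below was thus higher at the long hosts than in these sets. By span it was 77 of 392 at 100 to 200 kb, 19 of 115 at 200 to 400 kb and 4 of 35 above 400 kb. A log2 change below 0 was fitted for 329 of the 542, beside 2586 of 5106 and 792 of 1495. No test compared these sets. Per kb of transcript, the median siNT exon level of the 546 hosts was 174.8 reads, against 318.1 over the hosts of all tested uaRNAs.

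Exon reads rose at Ebf1, Fbn2, Ptpn14 and Tbc1d5. Ebf1, a transcription factor of B cell development, had 63, 87.0 and 55.5 exon reads in siNT and 184 and 146 in the labelled siZC3H4 libraries, 2.42-fold (log2 1.27 ± 0.26; limma adjusted p = 0.0413). Fbn2, a fibrillin gene, had 203, 244 and 247 against 398 and 454 (log2 0.88 ± 0.18). Groups are separate in both.

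Ptpn14 had 1176, 1276 and 1184 exon reads against 2132 and 2171 (log2 0.83 ± 0.12), and Tbc1d5, a regulator of the endosomal GTPase Rab7, 331, 327 and 334 against 579 and 598 (log2 0.83 ± 0.14). The uaRNAs of Ebf1 (log2 1.33; 1.00 with adjusted p = 0.131 without siZC3H4 replicate 2) and Ptpn14 also rose, and those of Fbn2 (1.06, limma adjusted p = 0.0564) and Tbc1d5 (0.54, 0.108) did not pass. None of the 4 exon calls held without siNT replicate 1, siZC3H4 replicate 2 or siZC3H4 replicate 3, where no host of the set rose, and those of Fbn2 and Tbc1d5 were also lost without siNT replicate 2 (adjusted p = 0.0649 and 0.0565). Without siNT replicate 3, 11 hosts rose and 6 fell, beside 5.42% and 1.11% of all genes. The log2 changes of the 4 without 1 library lay between 0.79 and 1.46.

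Changes of a uaRNA and of its host were not visibly related. Of the 335 hosts with a risen uaRNA, 2 had risen exon reads, 331 did not pass and 2 were not tested. Across 542 genes the log2 changes had a Pearson r of 0.05 and a Spearman correlation of 0.00, computed over points that share the same 5 libraries. In the siNT libraries, in contrast, uaRNA reads per region and exon reads per kb had a Pearson r of 0.36 and a Spearman correlation of 0.39 across the 546.

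**Figure D5:**
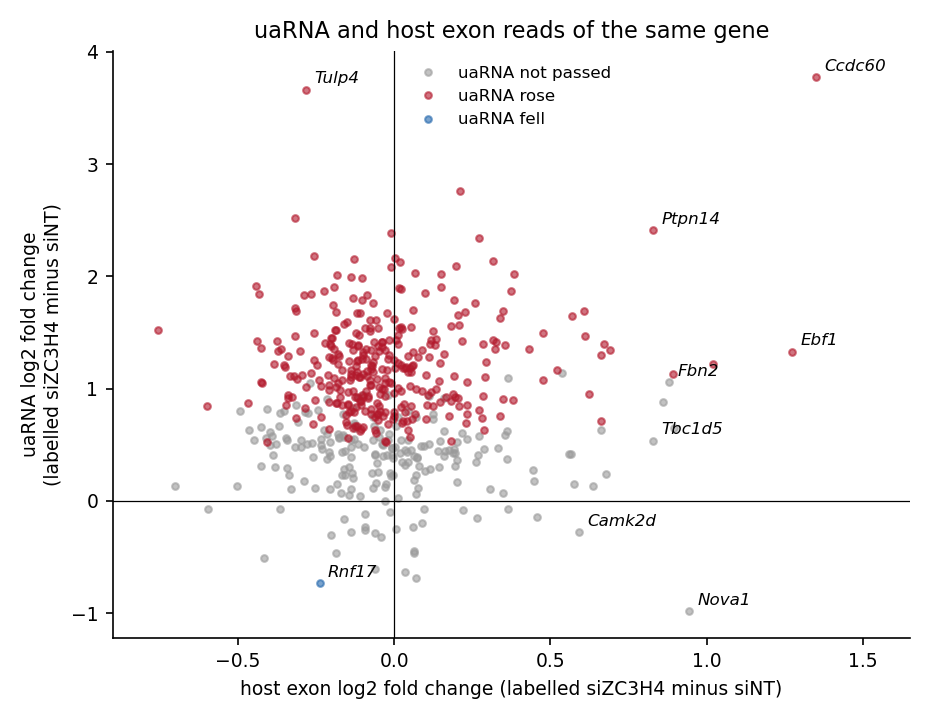
uaRNA log2 fold change (vertical axis) against host exon log2 fold change (horizontal axis), labelled siZC3H4 minus siNT, for 542 long hosts coloured by the limma call of the uaRNA, with genes of the text named. On the deposited scale, points spread upward at exon changes near 0, Tulp4 rises by 3.67 on the vertical axis at -0.28 on the horizontal one, and Nova1 lies alone at lower right.

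Measured as a ratio to exon reads of the same host within each library, 302 of 542 uaRNAs rose (55.7%) and 2 fell, beside 53.9% and 1.23% of all pairs tested, and the median log2 change was 0.93 (0.87 over all pairs). The 5 largest ratio rises were those of Tulp4 (log2 3.95), Rnf144a (2.84), Epb41l1 (2.55), Mrtfb (2.44) and Ccdc60 (2.42). Tulp4, Rnf144a and Ccdc60 are among the 52 admitted through the labelled siZC3H4 libraries. Since the ratio uses the same uaRNA reads, their rank is partly set by the rule. Of the 335 risen uaRNAs, 277 also rose by the ratio and 56 did not pass it, while 25 that had not passed rose by the ratio. Without siZC3H4 replicate 2, 96 rose by the ratio, beside 17.9% of all pairs, and the median was 0.77.

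Both ratio falls were at genes whose exon reads were higher in the labelled libraries. Nova1, a neuronal splicing regulator, had 19, 16.5 and 17.9 uaRNA reads in siNT against 10.8 and 6.69, and 79, 103 and 94.7 exon reads against 181 and 173. Neither change passed by itself (limma adjusted p = 0.0562 for the exon reads), and the ratio fell by 1.93 ± 0.31 on the log2 scale. The Nova1 uaRNA is among the 2 with a siZC3H4 mean below 10 reads. It reached the minimum through siNT, where it was high. Its fall is thus partly set by the rule, and no p-value is given for the uaRNA or the ratio. Camk2d, a calmodulin-dependent kinase gene, had 38, 22.6 and 33.3 uaRNA reads against 22.6 and 27.7 and 113, 87.8 and 112 exon reads against 149 and 164. Its ratio fell by 0.87 ± 0.28 (adjusted p = 0.0174), and did not pass without siNT replicate 1 (-0.78, adjusted p = 0.0599) or siZC3H4 replicate 2 (adjusted p = 0.119).

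Scaling each library on the uaRNA table itself measures a uaRNA against the typical one, since the shared rise is then removed. With median-of-ratios scaling, the median log2 change of the long hosts was 0.01, and the 29 that rose and 43 that fell are those that stood apart from the typical uaRNA. Of the 10 strongest rises above, 8 still rose, from 1.30 at Mrtfb to 3.03 at Ccdc60, and Agap1 and Sorl1 did not pass. Only Epb41l1, Tcf4 and Mrtfb among the 8 had a siNT mean of at least 10 reads. The others are among the 52 admitted through the labelled siZC3H4 libraries, so their rise on this scale too is partly set by the rule. Of the genes named above, those that fell on this scale were Nova1 (-1.79), Rnf17 (-1.62), Grid1 (-1.36), Osbpl1a (-1.33), Camk2d (-1.13), Ubr1 (-1.12), Map4 (-0.79), Dyrk1a (-0.74), Tbc1d22a (-0.72), Lrrc8d (-0.64) and Chd9 (-0.62). The place of Nova1 is partly set by the rule, since its uaRNA reached the minimum through siNT. The abundant uaRNAs of Schip1, Ankrd11 and Zfp704, which rose on the deposited scale, stood at -0.36, -0.32 and -0.36 here and did not pass, and the risen uaRNAs of Tbl1xr1 (-0.17), Gsk3b (-0.04), Arhgap35 (-0.25) and Cobl (-0.22) also turned sign without passing.

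The promoters of long hosts were rich in GC. Of the 546 hosts, 297 had a RefSeq window whose annotated start lay within 100 bases of the host start. Median GC content of these windows was 68.7% (lower quartile 62.3), beside 63.0% over 3271 tested uaRNAs with such a window, 61.0% for hosts of up to 10 kb and 52.7% over all 32851 windows. GGGCGG on either strand stood in 82.8% of the long hosts' windows, 74.0% of those of all tested and 35.7% of all windows. CCAAT was present in 104 of the 297 windows of long hosts and in 41.4% and 37.4% of the others. For the same 3 sets, TATAAA stood in 2.4%, 5.3% and 13.6%, AATAAA in 3.7%, 8.7% and 19.6%, and GTAAGT in 3.4%, 3.8% and 7.7%. These are matches of letters in 300 bases.

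Within the long hosts, median GC was 68.0% for the 184 that rose and 69.3% for the 113 that did not pass, and GGGCGG stood in 84.8% and 79.6%. On the strand of the uaRNA, AATAAA was found in 1.6% and 1.8% and GTAAGT in 1.6% and 0.9%. Across the 297, log2 change and promoter GC had a Pearson r of 0.02. The windows reach 250 bases upstream and hold at most the first part of each uaRNA.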

How the data were processed

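Stranded libraries were made from 4sU-labelled RNA. Per the submitters' processing notes, cutadapt 1.14, STAR, featureCounts and DESeq2 were used, with builds mm10 and dm6. What dm6 was used for is not stated in the labels. The deposited values of both tables (unit: signal) are read counts that the authors divided by 1 depth factor a library (1, 1.15, 1.172, 1.767 and 1.046, the same in both tables). Multiplied back, 100% of values were whole within 0.01 reads.

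limma 3.58.1 (R 4.3.3; lmFit, eBayes with trend) was fitted over all features with a mean of 10 or more on log2(value + 1), with Benjamini-Hochberg adjustment over the whole table and a threshold of 0.05. It was tested on simulated data. edgeR 4.0.16 and DESeq2 1.42.0 on the recovered reads, other pseudocounts, filters and scalings, left-out libraries and a replicate block were alternatives. The 546 uaRNAs, the role lists and the alternatives were chosen with earlier results of these data known, and the 100-base limit on promoter windows after seeing them. The 10 largest rises were taken among called uaRNAs with both labelled siZC3H4 libraries above every siNT library. Other genes named are the falls, the 5 highest means, the 5 longest hosts, the 5 highest means not passed, hosts whose exon reads passed, the 3 highest means of each role list, the edges of each threshold, and the 5 largest ratio rises and up to 5 falls. A gene that this rule names is not reported here. A stop before the start is listed for 4 hosts of tested uaRNAs. None would pass 100 kb when turned, and none is included.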

Additional observations from a re-analysis of the deposited data

How the results depend on the processing

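Scaled on the uaRNA table itself, 29 uaRNAs of long hosts rose and 43 fell with a median of 0.01 (median of ratios), or 31 and 39 with 0.03 (TMM), and by the ratio to exons 31 rose and 31 fell with 0.09, or 33 and 30 with 0.11. With the exon table's TMM on both tables the median was 0.85. Under median of ratios and TMM, log2 changes of genes called on either scale turned at Schip1 (-0.36, -0.34), Ankrd11 (-0.32, -0.30), Zfp704 (-0.36, -0.34), Lrrc8d (-0.64, -0.62), Tbl1xr1 (-0.17, -0.14), Tbc1d22a (-0.72, -0.70), Gsk3b (-0.04, -0.01), Dyrk1a (-0.74, -0.72), Arhgap35 (-0.25, -0.23), Cobl (-0.22, -0.20), Map4 (-0.79, -0.76) and Chd9 (-0.62, -0.59). Without a call on either scale, Ctnnd2 (-0.24, -0.21), Ino80 (-0.45, -0.42), Tlk2 (-0.44, -0.41), Clasp1 (-0.64, -0.62), Tbc1d5 (-0.34, -0.32), Nup210 (-0.41, -0.38), Igf2bp2 (-0.40, -0.38), Upf2 (-0.51, -0.49) and Vps53 (-0.50, -0.47) also turned. Leaving out 1 library, the number of uaRNAs that rose ran from 170 to 326 and that fell from 0 to 3, host exons that rose from 0 to 11 and that fell from 0 to 6, and ratios that rose from 96 to 306 and that fell from 1 to 4. edgeR called 2 uaRNAs lower, DESeq2 10 host exons higher, and at a mean of 30 or more no ratio fell. With a replicate block, which removes siNT replicate 1 from the comparison, 29 host exons rose and 59 fell (12.3% and 6.65% of all genes), and 338 uaRNAs rose. Deviations of same-numbered libraries correlated at 0.376 and 0.426 for uaRNAs and 0.528 and 0.618 for exons, but there are only 2 such pairs and the labels do not say what the number marks. Hosts above 50 kb gave 815 risen and 7 fallen uaRNAs of 1315, and hosts above 200 kb 88 and 0 of 152. Chosen after seeing the data, dropping hosts with another RefSeq gene upstream left 273 risen of 448. Over all genes the naming rule picked, 728 of 825 values under the alternatives kept their side of the threshold, 21 of them with a turned sign, 53 lost the call, 19 gained one, and 25 turned sign with a call on at least 1 side. Depth limits uaRNAs of few reads: the median 95% interval reached 0.65 log2 units to each side of its estimate.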
